A study of Homo sapiens with 4 samples.

Results

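The proteasome genes of K562 cells are described here before hemin and after 24 h in its presence. K562 is a human line from chronic myeloid leukemia that makes hemoglobin when given hemin, an oxidized form of heme. The members are the transcript probe sets whose gene symbol is PSMA, PSMB, PSMC, PSMD, PSME or PSMG and then a number, or PSMF1, POMP or ADRM1. Each gene entered by its name, but the members were chosen with earlier results of these data known. The rule found 46 genes, each with 1 probe set, among 20893 transcript probe sets and 17687 named genes. PSMC5, PSMD7, PSMD13 and PSME2 had no probe set of that name in the annotation used and are not analysed here. Levels were read on Human Clariom S arrays, where short probes grouped into probe sets report 1 level per gene on a log2 scale. Untreated K562 cells at 0 h had 2 arrays, and K562 cells after 24 h in 50 µM hemin had 2 arrays, labelled as biological replicates. All arrays come from this 1 line, and none of the arrays used here is of a 24 h culture without hemin, so that hemin and time in culture cannot be told apart. No source used here says that the replicates were separate cultures, so the p-values measure the spread between these arrays.

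The proteasome is the barrel-shaped protease that degrades proteins tagged with ubiquitin. Its 20S core is a stack of rings of alpha subunits, which form the gate, and of beta subunits, some of which carry the proteolytic sites. The 19S particle caps the core: its base holds a ring of ATPases that unfold the substrate, and its lid removes the ubiquitin chain. Assembly needs dedicated chaperones that do not stay in the finished particle. The proteasome takes part in the removal of proteins during red cell maturation, and the transcription factor NRF1, encoded by NFE2L1, raises the genes of its subunits when proteasome activity falls short.

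The arrays were alike in scale, with array medians of 6.10 to 6.24 on the log2 scale. A dim line was drawn at 5.70, under which 95% of 349 olfactory receptor genes had their mean, so that a value under it is not read as a level. Of the markers of K562 and the erythroid lineage, GATA1, HBE1, TFRC, ALAS2 and KLF1 lay above this line in all 4 arrays. Of the 4 lymphocyte markers with a probe set 1 did so, of the 5 of granulocytes and monocytes 1, and of the 6 of stroma, endothelium and epithelium 4, of which EPCAM, KRT8 and KRT18 are epithelial. The lymphocyte marker, CD79A (6.49 to 7.55), stayed below 7.56, under which 95% of 612 negative control probe sets had their mean. The marker of granulocytes and monocytes, LYZ (11.33 to 12.32), and that of stroma, COL1A2 (8.42 to 9.24), lay above 7.56 in all 4 arrays. None of these markers was called between the time points by limma, where 0.823% of all probe sets were called higher and 0.12% lower. Without adjustment, limma gave a p under 0.05 for GATA1 (log2 fold change -1.04), EPCAM (-1.21) and HBE1 (0.91). It also gave one for PECAM1, which was lower, and CD8A, which was higher, but these lay under the dim line in some or all arrays.

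After 24 h of hemin, most subunits of the beta ring, the 19S base and the lid stood a little higher. In the alpha ring the time points mostly overlapped. No member passed the test, and no group was tested as a whole. In limma, 0 of 46 members were called higher and 0 lower at an adjusted p under 0.05, where 0.823% of all probe sets were called higher and 0.12% lower. Without adjustment, limma gave a p under 0.05 for 11 higher members (23.9%) and for 1 lower member, PSMB8. Among the 11 were 9 of the 30 subunits of the core and the 19S particle. Of all probe sets, 6.28% were higher and 6.62% lower at that p. PSMB8 lay above the dim line in only 1 array, and of the members above this line on average 0 were lower at that p. With trend and robust variance, limma called 2 members, PSMD11 and PSMD3, where it called 1.85% of all probe sets higher and 0.761% lower. The log2 fold change was above 0 in 33 of the 46 members (71.7%), against 44.9% of all probe sets. Its median was 0.46 over the members and -0.06 over all probe sets. In 26 members (56.5%) both arrays at 24 h lay above both at 0 h, and in 6 both lay below. Over all probe sets these shares were 18.8% and 24.9%, and over the 11496 probe sets above the dim line on average 23.4% and 27.3%. RNA was measured in bulk, so that more RNA in each cell and more cells that carry it cannot be told apart.

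**Figure D1:**
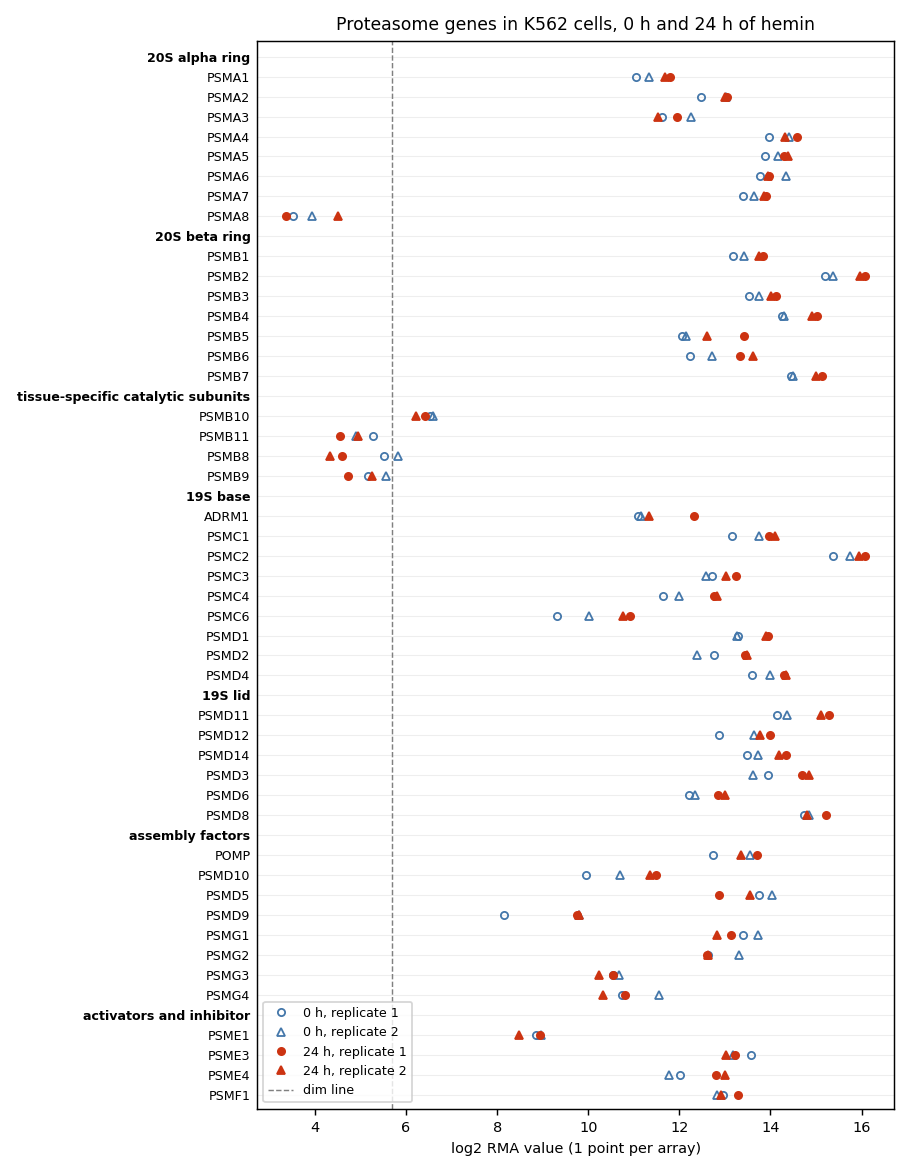
Level of each of the 46 proteasome genes (rows, by role) in each array, on the log2 scale (x axis); open blue symbols are the 2 arrays at 0 h, filled red symbols the 2 arrays at 24 h, circles replicate 1 and triangles replicate 2, and the dashed line is the dim line at 5.70. The red symbols lie to the right of the blue ones in all 7 genes of the beta ring and all 9 of the 19S base, while the tissue-specific catalytic subunits lie near or below the line.

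In the alpha ring of the 20S core, the arrays of the 2 time points mostly overlapped. Of its 8 genes, 3 had both arrays at 24 h above both at 0 h and 0 the reverse, and the median log2 fold change was 0.27. Without overlap, 18.8% of all probe sets were higher and 24.9% lower, and 23.4% and 27.3% of those above the dim line on average. PSMA1 had the largest difference of the ring, with log2 values of 11.05 and 11.34 at 0 h and 11.80 and 11.68 at 24 h. The arrays of PSMA1 did not overlap, but its log2 fold change of 0.55 (standard error, SE, 0.31; limma adjusted p = 0.52) did not pass the test. PSMA7 measured 13.39 and 13.64 at 0 h and 13.91 and 13.87 at 24 h, a log2 fold change of 0.37. PSMA3 measured 11.61 and 12.25 at 0 h and 11.95 and 11.54 at 24 h, so that its 2 time points overlapped. Its log2 fold change was -0.18, with a 95% interval of -0.98 to 0.61, and changed sign when 0 h replicate 2 (0.14) or 24 h replicate 2 (0.02) was left out. PSMA2, PSMA4, PSMA5 and PSMA6 had log2 fold changes of -0.10 to 0.32. PSMA8, which encodes a form of an alpha subunit known from the testis, stayed under the dim line on every array, at 3.36 to 4.51.

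In the beta ring, all 7 genes of the constitutive core had both arrays at 24 h above both at 0 h, against 18.8% of all probe sets. The median log2 fold change was 0.70, the smallest was 0.43 in PSMB3 and the largest 0.99 in PSMB6. PSMB6 encodes the subunit with caspase-like activity. Its log2 values were 12.23 and 12.71 at 0 h and 13.32 and 13.61 at 24 h, a 1.99-fold difference (SE 0.33 on the log2 scale, limma adjusted p = 0.24). PSMB5 encodes the chymotrypsin-like subunit, the target of the drug bortezomib. It measured 12.05 and 12.15 at 0 h and 13.42 and 12.61 at 24 h, so that the arrays at 24 h lay further apart from each other than those at 0 h. Its log2 fold change was 0.91 (SE 0.36, limma adjusted p = 0.31), and 0.51 without 24 h replicate 1. PSMB7, the trypsin-like subunit, went from 14.46 and 14.51 to 15.12 and 14.99, a log2 fold change of 0.57. PSMB2 and PSMB4, structural subunits of the ring, had log2 fold changes of 0.73 and 0.70 and an unadjusted p of 0.042 and 0.048 in limma. PSMB3 measured 13.52 and 13.75 at 0 h against 14.13 and 14.01 at 24 h.

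The catalytic subunits that replace the constitutive ones in particular tissues were dim. PSMB8, PSMB9 and PSMB10 form the immunoproteasome of immune cells and of cells treated with interferon gamma, and PSMB11 belongs to the thymus. PSMB9 and PSMB11 stayed under the dim line on every array, at 4.56 to 5.57. PSMB8 measured 5.53 and 5.82 at 0 h and 4.60 and 4.33 at 24 h, below the line in all but 1 array, so that no fold change is given for it. PSMB10 measured 6.52 and 6.59 at 0 h and 6.42 and 6.23 at 24 h, above the dim line but below 7.56, under which 95% of 612 negative control probe sets had their mean. The arrays of PSMB8 and PSMB10 at 24 h lay below those at 0 h without overlap, as did those of 24.9% of all probe sets. At these levels no direction is read from either gene. Of genes that interferon gamma raises together with the immunoproteasome, 5 had a probe set (TAP1, TAP2, TAPBP, IRF1 and NLRC5), and in all 5 the time points overlapped. Only TAP2 and TAPBP lay above the dim line in all 4 arrays, so that the overlap of the others is not read as a steady level. The arrays of TAPBP at 0 h lay far apart, at 11.02 and 8.64. TAP2, a subunit of the peptide transporter, had the largest difference of the 5, a log2 fold change of -0.47 (limma adjusted p = 0.63).

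In the base of the 19S particle, all 9 genes had both arrays at 24 h above both at 0 h, against 18.8% of all probe sets. Their median log2 fold change was 0.65. PSMC1, PSMC2, PSMC3, PSMC4 and PSMC6 encode ATPases of its ring. PSMC6 had the largest difference of the members above the dim line, with log2 values of 9.32 and 10.02 at 0 h and 10.91 and 10.76 at 24 h. This was 2.24-fold (log2 fold change 1.16, SE 0.35, limma adjusted p = 0.18), and the gap between the nearest arrays was 0.73. PSMC4 measured 11.64 and 11.99 at 0 h and 12.75 and 12.82 at 24 h, a log2 fold change of 0.98 (95% interval 0.26 to 1.69, limma adjusted p = 0.22). PSMC2 had the smallest difference of the base, from 15.38 and 15.75 to 16.09 and 15.94. PSMD1 and PSMD2 are the scaffold subunits that bind ubiquitin receptors and shuttles, and had log2 fold changes of 0.65 and 0.90. PSMD4 and ADRM1 are ubiquitin receptors. PSMD4 measured 13.60 and 14.00 at 0 h and 14.31 and 14.35 at 24 h. ADRM1 measured 11.10 and 11.17 at 0 h and 12.32 and 11.33 at 24 h, so that its log2 fold change of 0.69 became 0.20 without 24 h replicate 1.

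In the lid, the log2 fold change was above 0 in all 6 genes and the arrays did not overlap in 5, with a median of 0.66. PSMD3, a structural subunit of the lid, measured 13.94 and 13.62 at 0 h and 14.70 and 14.84 at 24 h. Its log2 fold change was 0.99 (SE 0.32, limma adjusted p = 0.21, and 0.033 with trend and robust variance). PSMD11, whose level is known to set the amount of assembled proteasome in human embryonic stem cells, measured 14.15 and 14.36 at 0 h and 15.28 and 15.11 at 24 h. Both arrays at 24 h were thus higher, by a log2 fold change of 0.94 (SE 0.31, limma adjusted p = 0.23, and 0.031 with trend and robust variance). PSMD14, the deubiquitinase that cuts the chain from the substrate, went from 13.48 and 13.72 to 14.35 and 14.18, a log2 fold change of 0.67. PSMD6 and PSMD12 had log2 fold changes of 0.65 and 0.63, and that of PSMD12 ranged from 0.25 to 1.01 when 1 array was left out. PSMD8 was the gene of the lid whose arrays overlapped, at 14.73 and 14.85 at 0 h and 15.22 and 14.80 at 24 h. Over the core and both parts of the 19S particle, 24 of 30 subunits had both arrays at 24 h above both at 0 h and 0 had both below. Over all probe sets the shares were 18.8% and 24.9%.

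**Figure D2:**
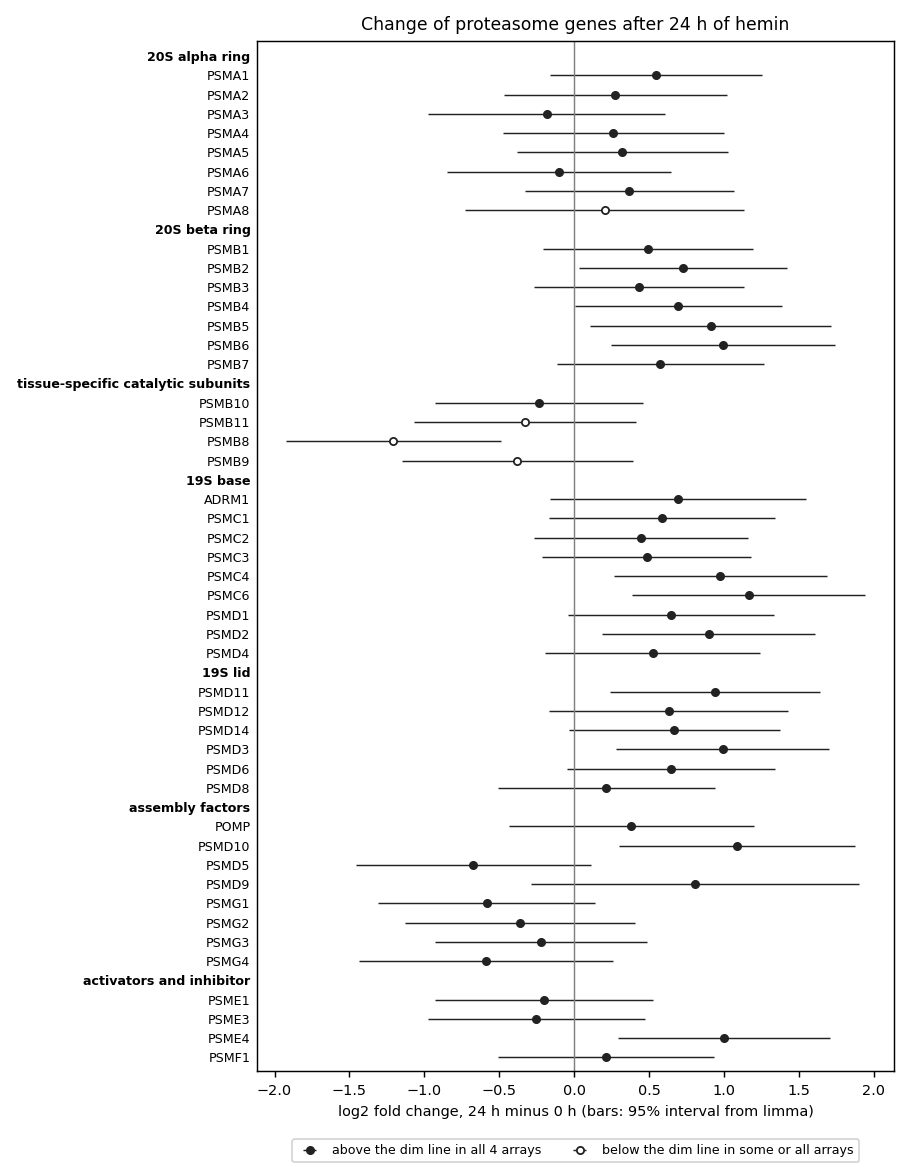
Log2 fold change of each of the 46 genes, 24 h minus 0 h (x axis), with bars for the 95% interval from limma; filled points are genes above the dim line in all 4 arrays and open points are the others. Most subunits of the core and of the 19S particle lie to the right of 0, and the intervals of 9 of these 30 exclude 0. The PSMG chaperones lie to the left, with intervals that include 0.

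The assembly factors pointed in both directions. Of 8 genes, 3 had a log2 fold change above 0 and 5 below, and the arrays did not overlap in 1 that was higher and in 4 that were lower. Over all probe sets, 55.1% had a log2 fold change below 0. Without overlap, 18.8% of them were higher and 24.9% lower. PSMG1, PSMG2, PSMG3 and PSMG4 encode the chaperones that build the alpha ring, and all 4 had a log2 fold change below 0, with a median of -0.47. PSMG1 measured 13.41 and 13.72 at 0 h and 13.13 and 12.83 at 24 h, a log2 fold change of -0.59 (SE 0.32, limma adjusted p = 0.49). PSMG4 had the same difference of -0.59, but its arrays overlapped, at 10.73 and 11.56 at 0 h and 10.80 and 10.31 at 24 h. PSMG2 and PSMG3 had log2 fold changes of -0.36 and -0.22, and the gaps between their nearest arrays were only -0.0163 and -0.0048. Leaving out 1 array brought the log2 fold change as near to 0 as -0.03 in PSMG2, -0.06 in PSMG3 and -0.18 in PSMG4. POMP, the maturation factor of the beta ring, measured 12.75 and 13.54 at 0 h and 13.71 and 13.35 at 24 h, and the time points overlapped.

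PSMD5, PSMD9 and PSMD10 encode chaperones of the 19S base, each of which holds certain ATPases before the base joins the core. PSMD10, also called gankyrin, measured 9.96 and 10.70 at 0 h and 11.49 and 11.35 at 24 h. The 2.12-fold difference of PSMD10 (log2 fold change 1.09, SE 0.35, limma adjusted p = 0.22) was the largest among the assembly factors, and its log2 fold change ranged from 0.71 to 1.46 when 1 array was left out. PSMD5 stood on the other side, at 13.74 and 14.03 at 0 h and 12.87 and 13.55 at 24 h, a log2 fold change of -0.67 (SE 0.35, limma adjusted p = 0.46). Without 24 h replicate 1 it was -0.34. PSMD5 had the lowest log2 fold change among the members above the dim line. PSMD9 measured 8.15 and 9.80 at 0 h and 9.76 and 9.80 at 24 h, so that its log2 fold change of 0.81 rested on 0 h replicate 1 and was -0.021 without it.

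Among the activators and the inhibitor, PSME4 alone had arrays that did not overlap. It encodes PA200, a cap of the core without ATPase activity that is known for the degradation of histones. PSME4 measured 12.02 and 11.78 at 0 h and 12.80 and 12.99 at 24 h, a 2.00-fold difference (log2 fold change 1.00, 95% interval 0.30 to 1.70, limma adjusted p = 0.21). PSME3, the nuclear activator PA28 gamma, measured 13.58 and 13.18 at 0 h and 13.22 and 13.03 at 24 h, a log2 fold change of -0.25. PSME1, an activator subunit that interferon gamma raises, measured 8.86 and 8.96 at 0 h and 8.94 and 8.47 at 24 h. PSMF1, an inhibitor of the core, measured 12.96 and 12.83 at 0 h and 13.30 and 12.91 at 24 h. In PSME1, PSME3 and PSMF1 the time points overlapped.

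**Figure D3:**
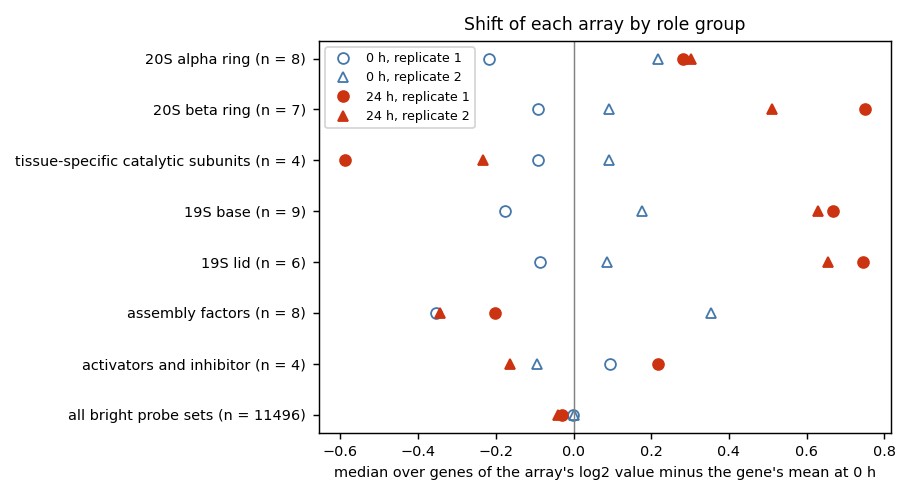
Shift of each array by role group: for each gene, the array's log2 value minus the gene's mean at 0 h, and then the median over the genes of the group (x axis); open blue symbols are arrays at 0 h, filled red symbols arrays at 24 h, circles replicate 1 and triangles replicate 2. Both red symbols of the beta ring, the 19S base and the lid lie between 0.51 and 0.75, above both blue ones, while those of all bright probe sets lie near 0.

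The arrays at 0 h differed from each other over the members. The median shift from each gene's mean at 0 h was -0.13 in 0 h replicate 1 and 0.13 in 0 h replicate 2, against 0.52 and 0.37 in the arrays at 24 h. Over all probe sets above the dim line, the shifts at 0 h were -0.0022 and 0.0022 and those at 24 h were -0.03 and -0.04. The shift of 0 h replicate 1 was lowest in the assembly factors (-0.35) and in the alpha ring (-0.22). Without 0 h replicate 1 the median log2 fold change of the members was 0.27 in place of 0.46, and without 0 h replicate 2 it was 0.61. The sign of the log2 fold change held in 39 of the 46 members when each array was left out in turn, among them every gene of the beta ring, of the 19S base and of the lid. It held in 4 of the 8 genes of the alpha ring. Where both arrays at 24 h lay above or below both at 0 h, leaving out 1 array could not change the sign. Only the 14 members whose arrays overlapped could change sign, and 7 did. Of the 39 members, 19 had a log2 fold change that moved by over 1.5 times when some 1 array was left out, and 20 did not.

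Promoter sequences are shown because NRF1 and its relative NRF2 bind the antioxidant response element, whose core TGACNNNGC (N is any base, read on both strands) occurs near proteasome genes. RefSeq windows of GRCh38.p14, from 250 bases before to 50 bases after a transcript's start, were given for 40 of the 46 genes, 49 windows in all. The core was found in 14 of the 40 genes (35.0%) and in 15 of the 49 windows (30.6%), against 16.1% of all genes with a window and 18.3% of those named on the array, or 13.3% of all 35116 windows and 14.1% of the windows of genes named on the array. By role, 7 of 25 genes of the core and the 19S particle (28.0%) and 4 of 7 assembly factors (57.1%) held it. These 4 were PSMD5, PSMG1 and PSMG2, with log2 fold changes below 0, and PSMD9. The core of the heat shock element, GAANNTTC, was in 0 of the 49 windows. It was in 6.77% of all windows and in 5.64% of the windows of genes named on the array. These are matches of letters with no correction for base composition, and factor binding was not measured. Below are the 250 bases before the start, 5′ to 3′ on the gene's strand, for the members with the largest log2 fold change among those with a match there. Capitals mark each match, on either strand. PSME4 lies at chr2:53970994-53971243 (minus strand), PSMD3 at chr17:39980557-39980806 (plus), PSMD9 at chr12:121888540-121888789 (plus), ADRM1 at chr20:62302646-62302895 (plus) and PSMD12 at chr17:67366578-67366827 (minus).
PSME4: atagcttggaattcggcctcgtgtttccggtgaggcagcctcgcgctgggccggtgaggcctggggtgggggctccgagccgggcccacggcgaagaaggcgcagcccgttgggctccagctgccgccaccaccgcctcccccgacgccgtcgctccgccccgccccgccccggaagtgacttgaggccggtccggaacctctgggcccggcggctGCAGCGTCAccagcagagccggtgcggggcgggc
PSMD3: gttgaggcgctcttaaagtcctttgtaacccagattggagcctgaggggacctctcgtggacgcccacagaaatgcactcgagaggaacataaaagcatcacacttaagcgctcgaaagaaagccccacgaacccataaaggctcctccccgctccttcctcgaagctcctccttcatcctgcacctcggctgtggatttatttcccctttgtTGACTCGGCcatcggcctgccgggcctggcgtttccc
PSMD9: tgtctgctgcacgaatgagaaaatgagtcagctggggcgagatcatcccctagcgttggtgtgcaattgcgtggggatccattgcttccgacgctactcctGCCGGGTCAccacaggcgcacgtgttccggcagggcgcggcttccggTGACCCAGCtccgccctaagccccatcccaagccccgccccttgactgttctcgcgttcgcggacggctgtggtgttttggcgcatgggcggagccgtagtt
ADRM1: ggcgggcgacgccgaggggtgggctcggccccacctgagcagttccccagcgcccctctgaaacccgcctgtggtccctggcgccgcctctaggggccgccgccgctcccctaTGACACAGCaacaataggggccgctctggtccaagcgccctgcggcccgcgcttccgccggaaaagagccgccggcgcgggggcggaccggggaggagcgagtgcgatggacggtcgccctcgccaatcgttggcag
PSMD12: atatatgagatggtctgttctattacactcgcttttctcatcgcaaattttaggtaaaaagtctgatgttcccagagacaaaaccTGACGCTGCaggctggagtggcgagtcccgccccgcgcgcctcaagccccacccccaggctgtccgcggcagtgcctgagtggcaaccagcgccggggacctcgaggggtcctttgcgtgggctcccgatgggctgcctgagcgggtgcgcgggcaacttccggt
In these bases PSMD9 holds 2 matches, one on each strand, and the other 4 hold 1 each. PSMC4, PSMD1 and PSMD3 hold a match after the start, which is not printed.

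Of the genes that act with the proteasome but lie outside these families, 36 had a named probe set. They were listed with earlier results of these data known. Of the 36, 3 rose (called higher by limma), where 0.823% of all probe sets were called higher. All 3 come from the lists of shuttles and of partners of the proteasome, so that their shared roles follow from the lists. SQSTM1, the receptor p62 that carries ubiquitinated cargo to autophagy and also binds the proteasome, measured 12.32 and 12.26 at 0 h and 16.18 and 15.81 at 24 h. It rose 13.0-fold (log2 fold change 3.70, SE 0.32, limma adjusted p = 0.0010). NPLOC4, an adaptor of the segregase p97 that recognises ubiquitin chains, rose from 10.09 and 9.74 to 12.30 and 11.86, or 4.49-fold (SE 0.33 on the log2 scale, limma adjusted p = 0.018). ZFAND5, a zinc finger protein that binds the proteasome and stimulates it, rose from 11.42 and 10.93 to 13.28 and 12.94, or 3.84-fold (SE 0.33 on the log2 scale, limma adjusted p = 0.031). The calls of NPLOC4 and ZFAND5 were lost without either of the arrays at 0 h (adjusted p of 0.098 to 0.16 from limma), and that of ZFAND5 also without 24 h replicate 1 (adjusted p = 0.064). SQSTM1 was called without any 1 of the arrays (limma adjusted p of at most 0.036).

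Over the 36 genes, the arrays at 24 h lay above both at 0 h in 21 (58.3%) and below in 3 (8.33%). These shares were 18.8% and 24.9% over all probe sets, and 23.4% and 27.3% over those above the dim line on average. The median log2 fold change of the 36 was 0.47. Of the 11 shuttles and p97 genes, 2 rose, SQSTM1 and NPLOC4, and 8 had both arrays at 24 h above both at 0 h. VCP, which encodes p97 itself, measured 14.30 and 14.16 at 0 h and 15.14 and 14.95 at 24 h, a log2 fold change of 0.82 (limma adjusted p = 0.30). Of 9 other partners of the proteasome 1 rose, ZFAND5. USP14, the deubiquitinase that trims chains at the base, measured 13.16 and 13.31 at 0 h and 13.72 and 13.59 at 24 h. UCHL5, the deubiquitinase held by ADRM1, stood lower at 24 h without overlap, at 15.02 and 15.20 against 14.42 and 14.87 (limma adjusted p = 0.61). SEM1, the small subunit of the lid, lay below the dim line at 0 h (4.90 and 4.78) and in 1 of the 2 arrays at 24 h (6.45 and 5.51), so that no fold change is given for it. MAFG, VCP and UCHL5 were named after their values were seen.

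**Figure D4:**
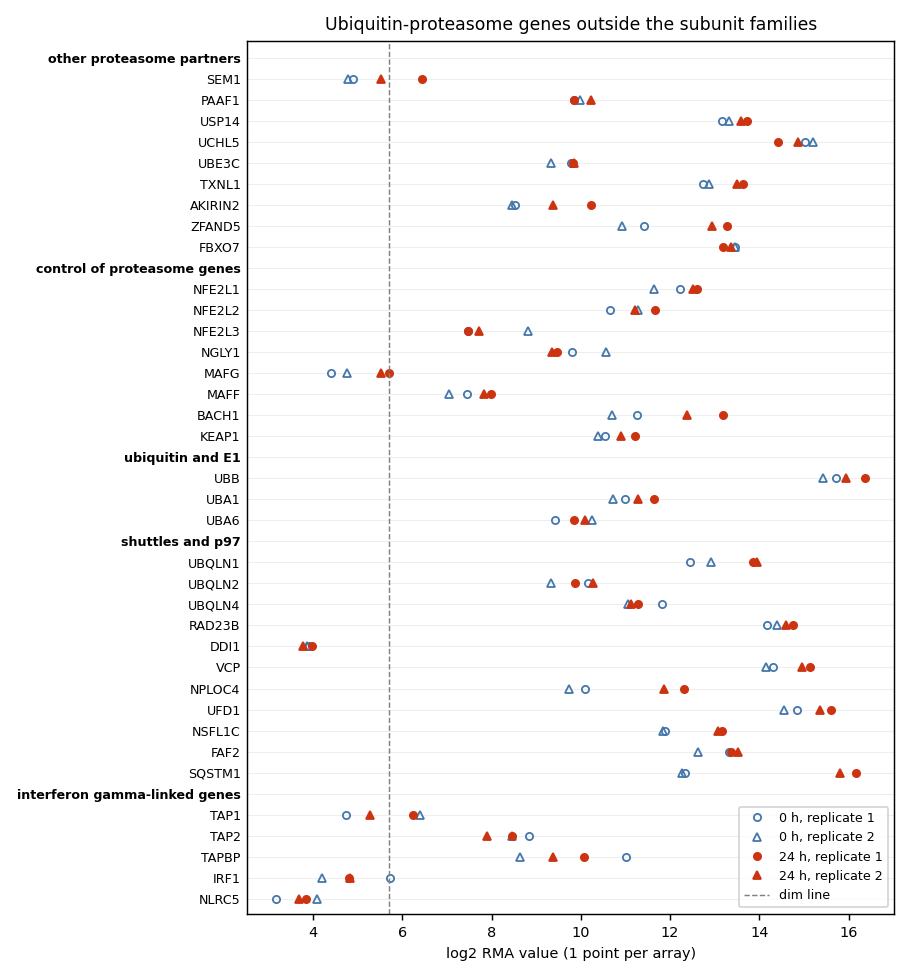
Level of 36 genes of the ubiquitin-proteasome pathway outside the subunit families (rows, by list) in each array on the log2 scale (x axis); open blue symbols are arrays at 0 h, filled red symbols arrays at 24 h, circles replicate 1, triangles replicate 2, and the dashed line is the dim line at 5.70. SQSTM1, NPLOC4 and ZFAND5 have the widest gaps between the arrays of the time points, at 3.49, 1.77 and 1.53.

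None of the 8 genes that control proteasome transcription was called by limma, while BACH1 and MAFG reached a p under 0.05 before adjustment. MAFG, a small MAF partner of these factors, lay above the dim line in 1 array (4.41 and 4.75 at 0 h, 5.71 and 5.53 at 24 h). NFE2L1, which encodes NRF1, measured 12.22 and 11.65 at 0 h and 12.60 and 12.52 at 24 h, a log2 fold change of 0.63 (95% interval -0.12 to 1.37, limma adjusted p = 0.48). NFE2L2, which encodes NRF2, overlapped between the time points, at 10.65 and 11.29 against 11.65 and 11.22. Both factors are known to be regulated mainly at the protein level, which arrays do not measure. BACH1, a repressor that competes for the same DNA element and is inactivated by heme, had the largest difference of the group. It measured 11.26 and 10.71 at 0 h and 13.19 and 12.39 at 24 h, a log2 fold change of 1.81 (SE 0.38, limma adjusted p = 0.066, 0.015 with the replicate block and 0.011 with trend and robust variance). Its adjusted p was 0.048 with 1 probe set per gene, 0.0045 without 24 h replicate 2, and 0.16 to 0.24 when each of the other arrays was left out. Of 3 genes for ubiquitin and its activating enzymes with a probe set, none was called, and UBB, which encodes a chain of ubiquitin units, had a log2 fold change of 0.60 (limma adjusted p = 0.49).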

How the data were processed

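RNA of K562 cells was hybridized to 4 Human Clariom S arrays, and the sample labels put 2 at each time point. The authors deposited log2 values that, per the methods, came from RMA in Affymetrix Expression Console (background correction, log2, quantile normalization); software versions and the build were not stated in those sources, and nothing was rescaled. Of 24351 rows, 2903 array controls and 555 unmapped transcripts were left out. Names came from GEO's platform annotation: 17705 of 20893 probe sets had 1 symbol and 3188 none, and for a gene with several the highest mean was taken.

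Time points were compared with limma 3.58.1 in R 4.3.3 (24 h minus 0 h, two-sided, no covariate), adjusted by Benjamini-Hochberg over all 20893 probe sets at a threshold of 0.05, and the fit was first tested on simulated data. With 2 arrays a time point, the number of arrays limits the precision. Every member could be named; values in all arrays were fixed for the 2 largest and the smallest signed change of each role group, and of the related lists for the called genes, or else the largest change, plus NFE2L1, NFE2L2, USP14 and SEM1; values of other genes were added afterwards. Members and lists were chosen with earlier results of these data known. As alternatives, values were quantile normalized again or centred on the median, dim probe sets were dropped, 1 probe set was kept per gene, and each array was left out; trend and robust variance, array weights, the replicate block, another threshold and the ANOVA of the methods were also tried. Promoters came from RefSeq; a planned comparison of protein sequences was not run.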

Additional observations from a re-analysis of the deposited data

How the results depend on the processing

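Of the 46 members, 0 were called in either direction by limma under repeated quantile normalization, median centring, 1 probe set per gene, a filter on dim probe sets, array weights, the replicate block, an adjusted p under 0.10 and without each array in turn. Trend and robust variance called 2 higher members (PSMD11 and PSMD3) and 6 related genes, and 546 of all probe sets. With the filter on dim probe sets in addition, chosen after seeing the data, it called 4 higher members (PSMB2, PSMD11, PSMD3 and PSME4) and 8 related genes. It then called 627 of the 11496 probe sets kept. At an unadjusted p under 0.05, limma gave 11 higher members, 1 lower member and 12 related genes, and the methods' ANOVA 11, 1 and 8. The lower member in both was PSMB8, which lay below the dim line in all but 1 array. Of all 20893 probe sets, limma gave 2695 at this unadjusted threshold and the ANOVA 1930. After adjustment this ANOVA, whose variance has few degrees of freedom, called 0 of all probe sets, and so 0 members and 0 related genes. The 3 related genes called became 1 to 5 without 1 array, and the 197 of all probe sets became 27 without 0 h replicate 1, 53 without 0 h replicate 2 and 392 without 24 h replicate 2. The median log2 fold change of the members ranged from 0.27 to 0.61 without 1 array, was 0.51 with the filter on dim probe sets, and was 0.47 to 0.48 under the other normalizations. Signs reversed for 7 members when 1 array was left out: PSMD9, whose log2 fold change ranged from -0.021 (without 0 h replicate 1) to 1.63, PSMA3 from -0.50 to 0.14 (0.14 without 0 h replicate 2, 0.02 without 24 h replicate 2), PSMA2 from -0.0034 to 0.55, PSMA6 from -0.39 to 0.19, PSMA8 from -0.37 to 0.78, POMP from -0.0144 to 0.78 and PSME1 from -0.43 to 0.0287. Replicate numbers were not shown to pair the arrays: same-numbered deviations correlated at -0.0032 over all probe sets and at 0.088 over those above the dim line. With the replicate block, 429 of all probe sets were called in place of 197, members stayed at 0, and BACH1 was called (adjusted p = 0.015). The number of arrays limits the precision: 95% intervals of the members reached 0.69 to 1.09 to either side.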
